A study of Mus musculus with 4 samples.

Results

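Interferons are secreted proteins that cells release on sensing nucleic acids or microbial products, and neighboring cells answer them by switching on a broad antiviral and inflammatory gene program. Type I interferons bind a receptor built of the IFNAR1 and IFNAR2 chains, and interferon gamma, the type II interferon, binds a receptor built of IFNGR1 and IFNGR2. Downstream of the type I receptor, STAT2 and IRF9 enter the ISGF3 complex, which binds interferon-stimulated response elements (ISREs) in the promoters of target genes. Among those targets are *Irf7*, which encodes a factor that amplifies interferon production, and *Usp18*, which encodes a protease that removes ISG15 from proteins and that binds IFNAR2 to dampen further signaling. *Irf1* encodes a factor induced by interferon gamma and other inflammatory signals.

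The genes described here are these 9: the receptor chains *Ifnar1*, *Ifnar2*, *Ifngr1* and *Ifngr2*, the ISGF3 genes *Stat2* and *Irf9*, the interferon regulatory factors *Irf1* and *Irf7*, and the inhibitor *Usp18*. They were taken by symbol from the 32285 genes of the deposited matrices, and each of the 9 symbols matched 1 row. Lung cells of male wild-type C57BL/6 mice were profiled by scRNA-Seq, in which each cell carries a barcode and each captured transcript a unique molecular identifier (UMI). There were 4 libraries, from young (2 to 3 months) and aged (22 months) mice that were either nonventilated or mechanically ventilated for 3 hours. A food-restricted diet is described for the mice without stating plainly that the young received it too, so diet and age may be confounded. The nonventilated mice were naive, and the ventilated mice also had ketamine and medetomidine anesthesia, buprenorphine, vascular lines and oxygen, so ventilation and these treatments cannot be told apart. Each library held cells of the left lung lobe from 3 mice, which were cryopreserved, thawed and pooled, and the mice of a pool cannot be told apart.

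The matrices held 15428 barcodes, of which 9514 were retained, with 1960 to 2750 cells, 17736722 to 22711057 UMIs and a median of 7237 to 8371 UMIs per cell in each library. Between libraries, 23 barcodes were shared. The cells fell into 18 clusters, called classes here, made without the 9 genes and without the other interferon genes counted below. Of these, 17 were named from marker genes, and 1, led by *Igfbp6* and *Rarres2*, stayed unnamed. The unnamed cluster, the alveolar type II–like cluster and a second aerocyte-like cluster, called shallow here, were shallow, with medians of 1706, 1407 and 966 UMIs per cell. The alveolar type II–like cluster also held markers of alveolar type I cells, the interstitial macrophage–like cluster held markers of dendritic cells, and the smooth muscle–like cluster held markers of pericytes. Some markers of venous endothelial cells were found in the general capillary–like cluster and of adventitial fibroblasts in the alveolar fibroblast–like cluster. At a finer resolution (0.5), general capillary–like, alveolar fibroblast–like and classical monocyte–like cells each split by ventilation. One fibroblast cluster held 298, 0, 243 and 6 cells and another 7, 382, 0 and 176 (young nonventilated and ventilated, then aged nonventilated and ventilated), and 1 classical monocyte cluster held 95, 0, 85 and 1 and another 0, 79, 0 and 94. A further classical monocyte–like cluster held 4, 66, 31 and 17 cells. Its cells had fewer UMIs, at a median of 3990 per cell beside 14264 and 16234 in the monocyte clusters above. For general capillary–like cells the clusters held 576, 14, 499 and 57 and 8, 607, 11 and 301. Within these 3 classes, ventilation was therefore mostly compared between cells that sit in different finer clusters. By its cell counts, a venous endothelial–like finer cluster (79, 64, 77 and 69 cells) matched a part of the general capillary–like class. An adventitial fibroblast–like one (51, 42, 43 and 26) matched a part of the alveolar fibroblast–like class. Finer clusters of other classes, matched in the same way, also differed in cell type. For the shallow aerocyte-like class they were shallow general capillary–like (72, 109, 72 and 83, in all 336 cells) and shallow aerocyte-like (69, 95, 41 and 30, in all 235). For the alveolar type II–like class they were shallow type I–like (59, 116, 68 and 67, in all 310) and full-depth type II–like (14, 17, 18 and 4, in all 53). In both classes the larger part, listed first, differs in type from the class name, which is used only as a label. For the interstitial macrophage–like class they were interstitial macrophage–like (53, 33, 33 and 37) and dendritic-like (33, 39, 59 and 21). For the unnamed cluster they were shallow alveolar fibroblast–like (83, 89, 82 and 83) and mesothelial-like (10, 12, 3 and 3). For the smooth muscle–like class they included smooth muscle–like (86, 49, 58 and 39) and pericyte-like (74, 91, 69 and 52). The part of these mixes in the results was not tested. Scrublet called 42 of the 9514 cells (0.441%) doublets, too few to show that it had worked, and no cell was removed on its call.

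UMIs were summed per class and library and scaled to counts per 1000000 UMIs of that sum (CPM). A difference is given as a log2 ratio, for which 1 UMI was added to either count, or as the plain ratio with its exact 95% interval. With 1 pooled library per group there was no replicate and no test, and the intervals cover counting error only, not the spread between mice or preparations. A value is said to have risen or fallen where the ratio was at least 2-fold, the mean of both libraries was at least 20 CPM, 1 library had at least 20 UMIs, and the interval left out 1. Values that met the 2 level criteria are called measured. A gene that is near 0 in 1 library is measured in a class only if the other library is high, so the counts below describe the measured values and not all classes. The basophil-like class had under 100000 UMIs in each library and entered no comparison, which left 17 classes. Ranges in parentheses after a ratio are its 95% interval. Where 4 values follow each other, they give the nonventilated and then the ventilated library of the young mice, and after these the same pair of the aged mice.

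In mouse genome build GRCm38, the type I receptor genes lie at chr16:91485238-91507441, plus strand (*Ifnar1*) and chr16:91372783-91405589, plus strand (*Ifnar2*), near *Ifngr2* at chr16:91547072-91565623, plus strand. *Ifngr1* lies at chr10:19591949-19610229, plus strand, *Stat2* at chr10:128270559-128292849, plus strand and *Irf9* at chr14:55603571-55610030, plus strand. *Irf1* lies at chr11:53770014-53778374, plus strand, *Irf7* at chr7:141262706-141266481, minus strand and *Usp18* at chr6:121245906-121270917, plus strand. All 9 are annotated as protein coding. *Irf9* shares 123 bases with *Rnf31* on the same strand, so reads from there cannot be assigned to 1 of them, and *Ifnar2* shares 13869 bases with the predicted gene *Gm21970*, which has no row in the matrices. *Irf7* shares 45 bases with *Phrf1*, and *Usp18* shares 15715 bases with the noncoding gene *Gm44148*, both on the opposite strand.

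Promoters were read from RefSeq (GRCm38.p6, 250 bases before to 50 bases after an annotated start) for 8 of the 9 genes. They are shown for *Stat2*, *Irf1* and *Irf7*, since these factors differed with ventilation in many classes. Capitals mark an ISRE core (GAAANNGAAA, or TTTCNNTTTC on the other strand) or a GAS-like element (TTCNNNGAA, the same on both strands), the type of site that STAT dimers bind.
*Stat2* (chr10:128270248-128270547, plus strand): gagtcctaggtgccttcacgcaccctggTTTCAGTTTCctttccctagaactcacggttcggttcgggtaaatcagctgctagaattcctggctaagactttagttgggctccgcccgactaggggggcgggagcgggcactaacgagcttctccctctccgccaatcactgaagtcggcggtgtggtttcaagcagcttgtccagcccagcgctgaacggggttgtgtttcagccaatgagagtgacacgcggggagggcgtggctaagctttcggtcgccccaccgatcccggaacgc
*Irf1* (chr11:53769764-53770063, plus strand): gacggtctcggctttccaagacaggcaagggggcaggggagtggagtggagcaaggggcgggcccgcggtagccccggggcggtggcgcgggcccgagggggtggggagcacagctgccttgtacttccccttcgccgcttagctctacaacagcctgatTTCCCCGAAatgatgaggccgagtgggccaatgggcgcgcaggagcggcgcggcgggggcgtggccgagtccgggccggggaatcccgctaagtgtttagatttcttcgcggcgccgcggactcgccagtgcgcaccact
*Irf7* (chr7:141266375-141266674, minus strand): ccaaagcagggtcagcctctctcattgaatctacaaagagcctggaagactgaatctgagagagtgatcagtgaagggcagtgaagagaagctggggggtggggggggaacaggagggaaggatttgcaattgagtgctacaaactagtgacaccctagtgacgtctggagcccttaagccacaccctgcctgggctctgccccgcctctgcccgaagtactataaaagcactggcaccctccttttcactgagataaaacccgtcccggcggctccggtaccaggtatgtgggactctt
The ISRE core was found in 1 of the 8 genes, *Stat2*, where it began 222 bases before the start, and in 1131 of all 32851 promoters of that length (3.44%). The GAS-like element was found in 3 of the 8 genes, *Irf1*, *Ifnar1* and *Ifnar2*, and in 2726 of all promoters (8.30%). In *Irf1* it began 90 bases before the first of its 2 annotated starts. Neither pattern was found in the windows of *Irf7*, *Irf9*, *Ifngr1* or *Ifngr2*, which says only that these letters are not in these windows. Among the 22 type I interferon targets counted below that had a promoter, 11 held the ISRE core (50.0%) and 6 the GAS-like element (27.3%). A gene was counted if any of its windows held the letters. The shares of all promoters are per window, so they are not a like measure.

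Over all retained cells, the 4 receptor genes differed little between libraries, while *Irf7*, *Usp18*, *Stat2* and *Irf9* were highest in the young ventilated library. *Irf7* stood at 27.2, 134.5, 34.7 and 47.5 CPM and *Usp18* at 14.6, 92.8, 15.6 and 28.6 CPM. *Stat2* stood at 65.6, 126.7, 74.1 and 80.9 CPM, *Irf9* at 49.4, 84.6, 45.6 and 63.2 CPM, and *Irf1* at 389, 326, 436 and 236 CPM. *Irf1* was thus lowest in the aged ventilated library. Over the same cells, *Ifnar1* ranged from 43.2 to 58.5 CPM, *Ifnar2* from 187 to 193 CPM, *Ifngr1* from 222 to 271 CPM and *Ifngr2* from 66.0 to 78.2 CPM. Since the libraries differed in their shares of classes (neutrophil-like cells made up 5.02%, 8.15%, 2.49% and 13.4% of cells), the genes were then compared class by class.

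The receptor chains were found in every class, and each had its own order of classes. *Ifnar1*, the chain that holds the kinase TYK2, was highest in neutrophil-like cells at 103, 107, 78.0 and 140.0 CPM (57, 119, 19 and 198 UMIs), followed by the lymphoid class at 96.8, 109.5, 106 and 104 CPM (31, 33, 82 and 53 UMIs) and interstitial macrophage–like cells at 84.5, 92.3, 108 and 79.2 CPM (99, 94, 128 and 64 UMIs). These neighbors overlapped in their range over the libraries, so their order was not resolved. The lowest mean level was in alveolar macrophage–like cells, at 10.0 to 18.5 CPM. *Ifnar2*, the chain that binds ligand with high affinity and to which USP18 attaches, stood at 298, 335, 204 and 305 CPM (88, 118, 46 and 63 UMIs) in the unnamed cluster, 266, 276, 302 and 292 CPM (1300, 1609, 1221 and 860 UMIs) in alveolar fibroblast–like cells and 205, 248, 201 and 339 CPM (113, 275, 49 and 480 UMIs) in neutrophil-like cells. Here too the ranges overlapped, and the lowest mean was in alveolar type II–like cells.

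*Ifngr1*, the ligand-binding chain for interferon gamma, had a class that stood apart. T, NK or innate lymphoid–like cells held 874, 1032, 927 and 959 CPM (280, 311, 718 and 490 UMIs), and the lowest of these values was above the highest value of any other class. Nonclassical monocyte–like cells followed at 754, 379.8, 609.9 and 355 CPM (1010, 621, 1870 and 700 UMIs) and alveolar fibroblast–like cells at 266, 406, 246 and 578 CPM (1302, 2373, 995 and 1702 UMIs), with ranges that overlapped. *Ifngr2*, the signaling chain of that receptor, was highest in classical monocyte–like cells at 184, 156, 179 and 183 CPM (266, 231, 216 and 305 UMIs), nonclassical monocyte–like cells at 143, 183, 168 and 177 CPM (191, 299, 516 and 349 UMIs) and neutrophil-like cells at 161, 148, 107 and 129 CPM (89, 164, 26 and 182 UMIs), which overlapped. Its lowest mean was in lymphatic endothelial–like cells, at 10.9 to 34.4 CPM.

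**Figure D1:**
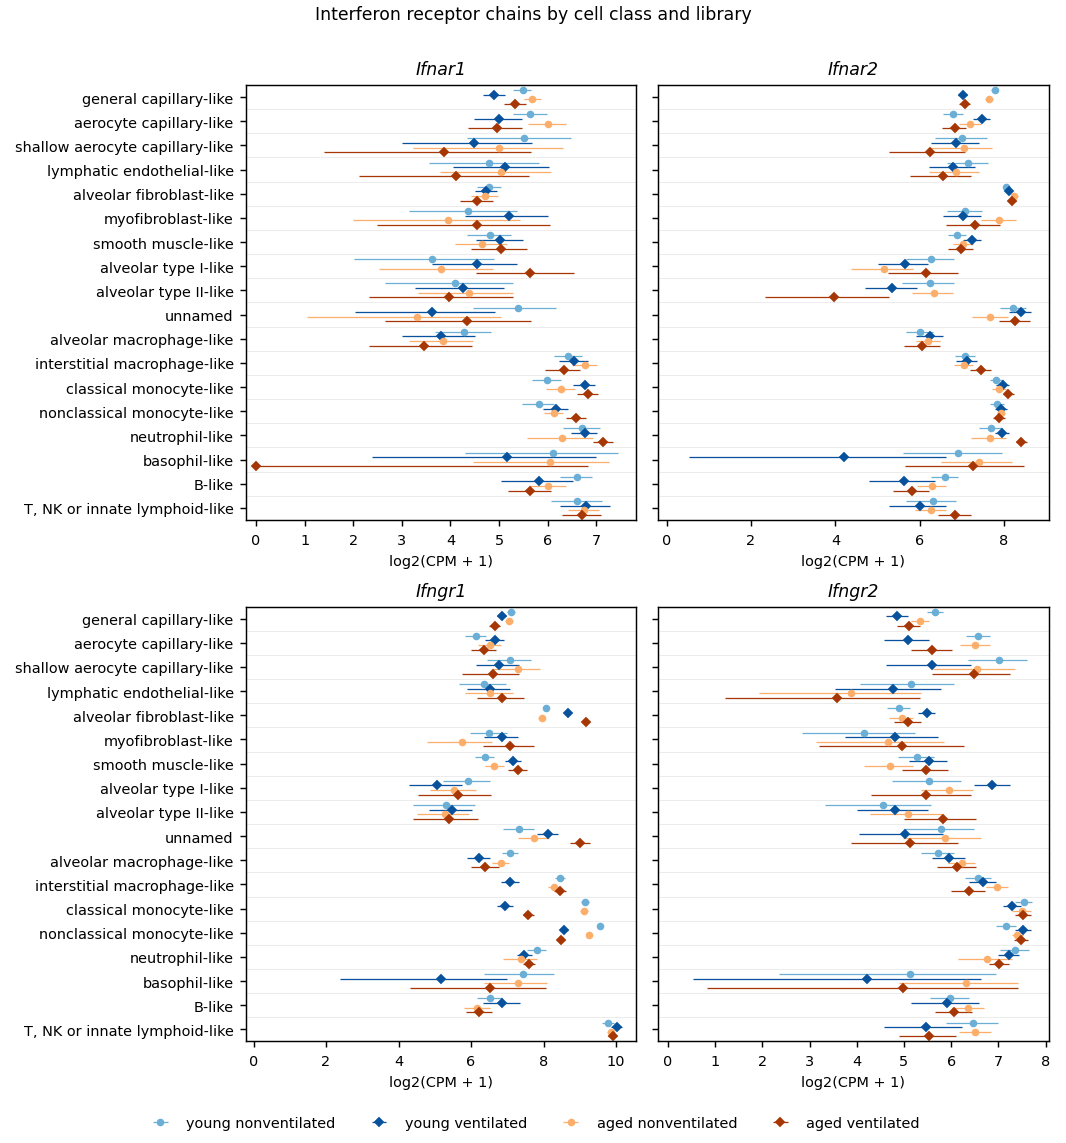
Levels of the 4 interferon receptor chains, as log2(CPM + 1) on the horizontal axis, in each of the 18 cell classes. Each point is 1 library and each bar its exact 95% Poisson interval; *Ifngr1* in the lymphoid class lies to the right of all other classes in all 4 libraries, and in classical monocyte–like cells both ventilated libraries (122 and 191 CPM) lie left of both nonventilated ones.

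Ventilation in the young mice was compared first. In the 17 classes, 112 values of the 9 genes were measured, of which 33 rose (29.5%) and 6 fell (5.36%), while over all genes 9.24% of measured values rose and 11.1% fell. The median log2 ratio was 0.24 for the 9 genes and −0.04 for all genes. The rises lay in *Stat2* (9 of 13 measured classes), *Irf7* (8 of 9), *Usp18* (5 of 5), *Irf9* (5 of 11), *Irf1* (5 of 17) and *Ifngr2* (1 of 13). *Ifnar1* and *Ifnar2* did not pass the fold in any of the 10 and 17 classes measured. In the aged mice, 97 values were measured, of which 5 rose (5.15%) and 9 fell (9.28%), beside 5.47% and 7.82% of all genes, and the median was −0.02 beside −0.05. The share of these genes that rose in the aged mice was thus near that of all genes. With cells thinned to 1000 UMIs, 16 values rose and 3 fell in the young, and 1 rose and 6 fell in the aged. The shares of all genes above are for unthinned counts, so these thinned counts have no background beside them.

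**Figure D2:**
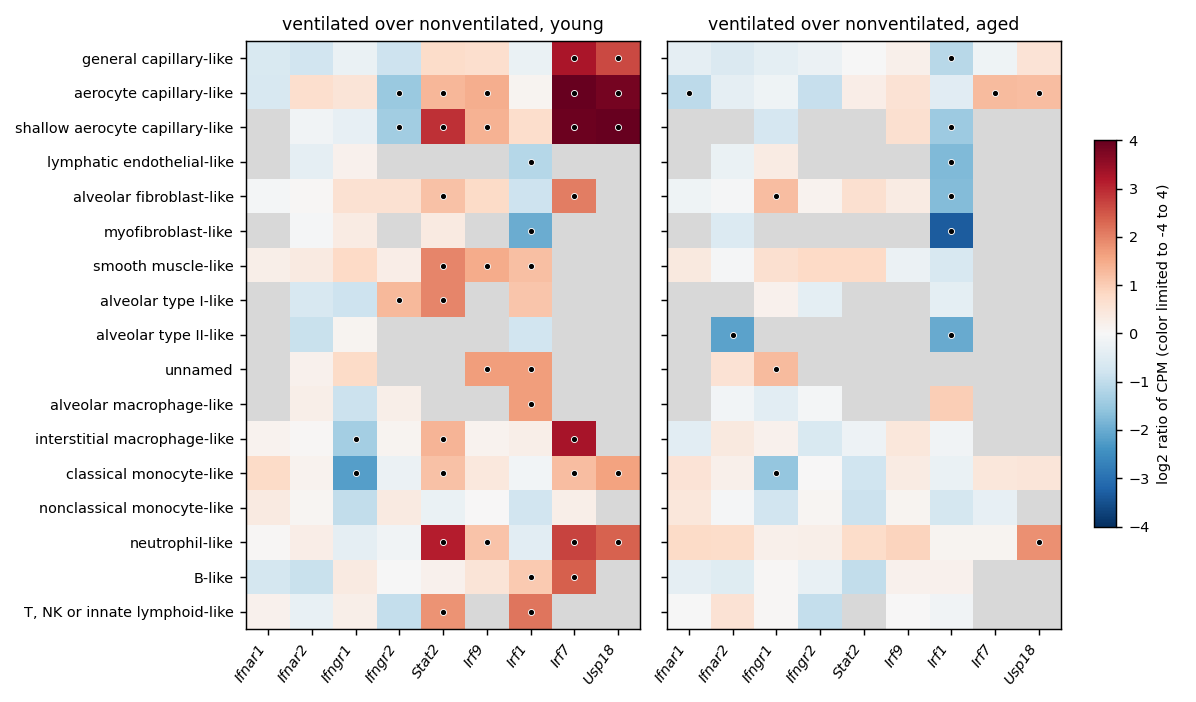
Log2 ratio of CPM, ventilated over nonventilated, for the 9 genes (columns) in 17 cell classes (rows), in young mice on the left and aged mice on the right. Red is higher and blue lower in the ventilated library, dots mark values that passed the fold, and gray fields were not measured (too few UMIs or too low a CPM). Most dots for rises lie in *Irf7*, *Usp18*, *Stat2* and *Irf9* on the left, and on the right *Irf1* has 6 dots, all for falls.

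*Irf7* rose in 8 of its 9 measured classes of the young mice and in 1 of 5 of the aged. In general capillary–like cells, the largest class, it stood at 23.0, 222, 46.4 and 40.9 CPM (122, 1214, 240 and 165 UMIs), so the young ventilated library was above the other 3, which lay between 23.0 and 46.4 CPM. It rose 9.66-fold (8.02 to 11.7) in the young, while the ratio in the aged was 0.881 (0.718 to 1.08). In aerocyte capillary–like cells, the thin capillary cells of the gas exchange surface, it stood at 15.4, 263, 21.7 and 54.2 CPM (22, 288, 19 and 49 UMIs) and rose 17.0-fold (11.04 to 27.6) in the young and 2.50-fold (1.44 to 4.49) in the aged. Aerocyte capillary–like cells were the 1 class in which *Irf7* rose in the aged. The shallow aerocyte-like cluster held 16.7, 335, 54.1 and 75.1 CPM (3, 78, 7 and 11 UMIs), with a rise of 20.0-fold (6.60 to 99.1) in the young, from 3 UMIs.

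Among leukocytes, neutrophil-like cells held *Irf7* at 54.4, 362, 111 and 122 CPM (30, 402, 27 and 173 UMIs) and classical monocyte–like cells at 149, 355, 127 and 173 CPM (216, 525, 153 and 289 UMIs). It rose 6.66-fold (4.59 to 10.0) and 2.37-fold (2.02 to 2.79) in the young, and in both classes the young ventilated library was the highest. Classical monocyte–like, neutrophil-like and shallow aerocyte-like cells were the 3 classes with the highest mean *Irf7*, and their ranges over libraries overlapped. Interstitial macrophage–like cells went from few counts to many, with 5.12, 58.0, 3.37 and 1.24 CPM (6, 59, 4 and 1 UMIs) and a rise of 11.3-fold (4.90 to 32.1). B-like cells held 12.6, 69.5, 18.9 and 11.96 CPM (10, 20, 17 and 10 UMIs) and rose 5.52-fold (2.46 to 13.2), and alveolar fibroblast–like cells held 8.99, 37.7, 12.4 and 7.80 CPM (44, 220, 50 and 23 UMIs) and rose 4.19-fold (3.02 to 5.93). In all 3 classes the aged ventilated library was below the aged nonventilated one, but *Irf7* was too low there to be measured in the aged. Nonclassical monocyte–like cells, the remaining measured class, held 83.7, 98.5, 61.6 and 49.2 CPM (112, 161, 189 and 97 UMIs) and did not pass the fold.

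*Usp18* followed in fewer classes. General capillary–like cells held 33.4, 209, 39.5 and 57.3 CPM (177, 1144, 204 and 231 UMIs) and rose 6.28-fold (5.35 to 7.39) in the young; the aged ratio was 1.45 (1.20 to 1.76). Aerocyte capillary–like cells had the highest mean, at 25.9, 374, 30.9 and 74.1 CPM (37, 410, 27 and 67 UMIs), and rose 14.4-fold (10.3 to 20.8) in the young and 2.40-fold (1.52 to 3.91) in the aged. In both capillary classes the young ventilated library was far above the aged ventilated one, and the latter above both nonventilated libraries. In the shallow aerocyte-like cluster the counts were 1, 96, 0 and 8 UMIs (5.58, 412, 0 and 54.6 CPM), a young ratio of 73.8 (12.9 to 2947) that rests on 1 UMI, and the count of 0 allows up to 23.2 CPM (3 UMIs). Neutrophil-like cells held 23.6, 129.8, 12.3 and 58.0 CPM (13, 144, 3 and 82 UMIs), with rises of 5.51-fold (3.12 to 10.6) in the young and 4.71-fold (1.56 to 23.3) in the aged, the latter from 3 UMIs. Classical monocyte–like cells held 18.7, 58.1, 20.8 and 29.4 CPM (27, 86, 25 and 49 UMIs) and rose 3.11-fold (2.00 to 4.99) in the young. In the other 12 classes compared, *Usp18* was not measured in either ventilation comparison.

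*Stat2* and *Irf9*, which encode subunits of ISGF3, had median log2 ratios of 1.31 and 0.77 over their measured classes of the young. The medians were 2.69 for *Irf7* and 2.64 for *Usp18*. They cover 13, 11, 9 and 5 classes in this order of genes, so they do not compare the genes in the same cells. In the same order, the young log2 ratios were 0.734, 0.665, 3.262 and 2.643 in general capillary–like cells and 3.126, 1.128, 2.693 and 2.365 in neutrophil-like cells. *Stat2* was highest in aerocyte capillary–like cells at 115, 287, 175 and 209 CPM (164, 314, 153 and 189 UMIs), then general capillary–like cells at 135, 225, 157 and 155 CPM (717, 1229, 812 and 626 UMIs) and the shallow aerocyte-like cluster at 16.7, 163, 46.4 and 123 CPM (3, 38, 6 and 18 UMIs), with overlapping ranges. It rose 2.49-fold (2.06 to 3.03) in the aerocyte and 9.74-fold (3.09 to 49.3) in the shallow class of the young, and the ratio in general capillary–like cells was 1.67 (1.52 to 1.83), under the fold. Its largest rise in a class of full depth was in neutrophil-like cells, which held 14.5, 142, 45.1 and 81.3 CPM (8, 157, 11 and 115 UMIs) and rose 9.76-fold (4.83 to 23.0). The aged ratio in that class was 1.801 (0.970 to 3.71), from 11 UMIs.

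In the stroma, *Stat2* stood at 42.7, 97.3, 43.5 and 67.2 CPM (209, 568, 176 and 198 UMIs) in alveolar fibroblast–like and 29.8, 117, 46.6 and 81.3 CPM (43, 130, 56 and 64 UMIs) in smooth muscle–like cells. It rose 2.28-fold (1.94 to 2.68) and 3.93-fold (2.76 to 5.68) in the young, and in both classes the order of the libraries was the same, with the young ventilated highest and the aged ventilated next. Alveolar type I–like cells, the flat cells that line the air space, held 14.1, 63.3, 21.7 and 10.8 CPM (5, 31, 10 and 2 UMIs) and rose 4.49-fold (1.73 to 14.8). Interstitial macrophage–like cells held 24.8, 64.8, 34.5 and 29.7 CPM (29, 66, 41 and 24 UMIs) and rose 2.62-fold (1.67 to 4.20), and the lymphoid class held 18.7, 73.0, 24.5 and 31.3 CPM (6, 22, 19 and 16 UMIs) and rose 3.90-fold (1.53 to 11.7). In these 3 classes the other libraries lay between 10.8 and 34.5 CPM. Classical monocyte–like cells held 42.2, 95.9, 89.7 and 51.0 CPM (61, 142, 108 and 85 UMIs) and rose 2.27-fold (1.67 to 3.12) in the young; in this class the aged nonventilated library was already near the young ventilated one. In nonclassical monocyte–like cells *Stat2* stood at 53.8, 44.6, 38.5 and 20.8 CPM (72, 73, 118 and 41 UMIs), and its young ratio of 0.830 (0.591 to 1.17) did not pass the fold.

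*Irf9* was highest in aerocyte capillary–like cells at 71.5, 198, 85.7 and 127 CPM (102, 217, 75 and 115 UMIs), the shallow aerocyte-like cluster at 61.4, 172, 85.0 and 137 CPM (11, 40, 11 and 20 UMIs) and neutrophil-like cells at 67.1, 149.6, 61.5 and 121 CPM (37, 166, 15 and 171 UMIs), with overlapping ranges. In the young it rose 2.77-fold (2.18 to 3.54), 2.80-fold (1.41 to 6.04) and 2.23-fold (1.55 to 3.28) in these classes. In each of them the order was the young ventilated library, then the aged ventilated one, then both nonventilated ones. Smooth muscle–like cells held 20.1, 57.6, 23.3 and 19.0 CPM (29, 64, 28 and 15 UMIs) and rose 2.87-fold (1.82 to 4.61), and the unnamed cluster held 16.9, 62.5, 22.2 and 29.0 CPM (5, 22, 5 and 6 UMIs) and rose 3.69-fold (1.36 to 12.5), from 5 UMIs. B-like cells, which differed between the ventilated libraries, held 45.4, 62.6, 26.7 and 29.9 CPM (36, 18, 24 and 25 UMIs). In the aged mice neither *Stat2* (9 classes measured) nor *Irf9* (11 classes) passed the fold in any class.

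**Figure D3:**
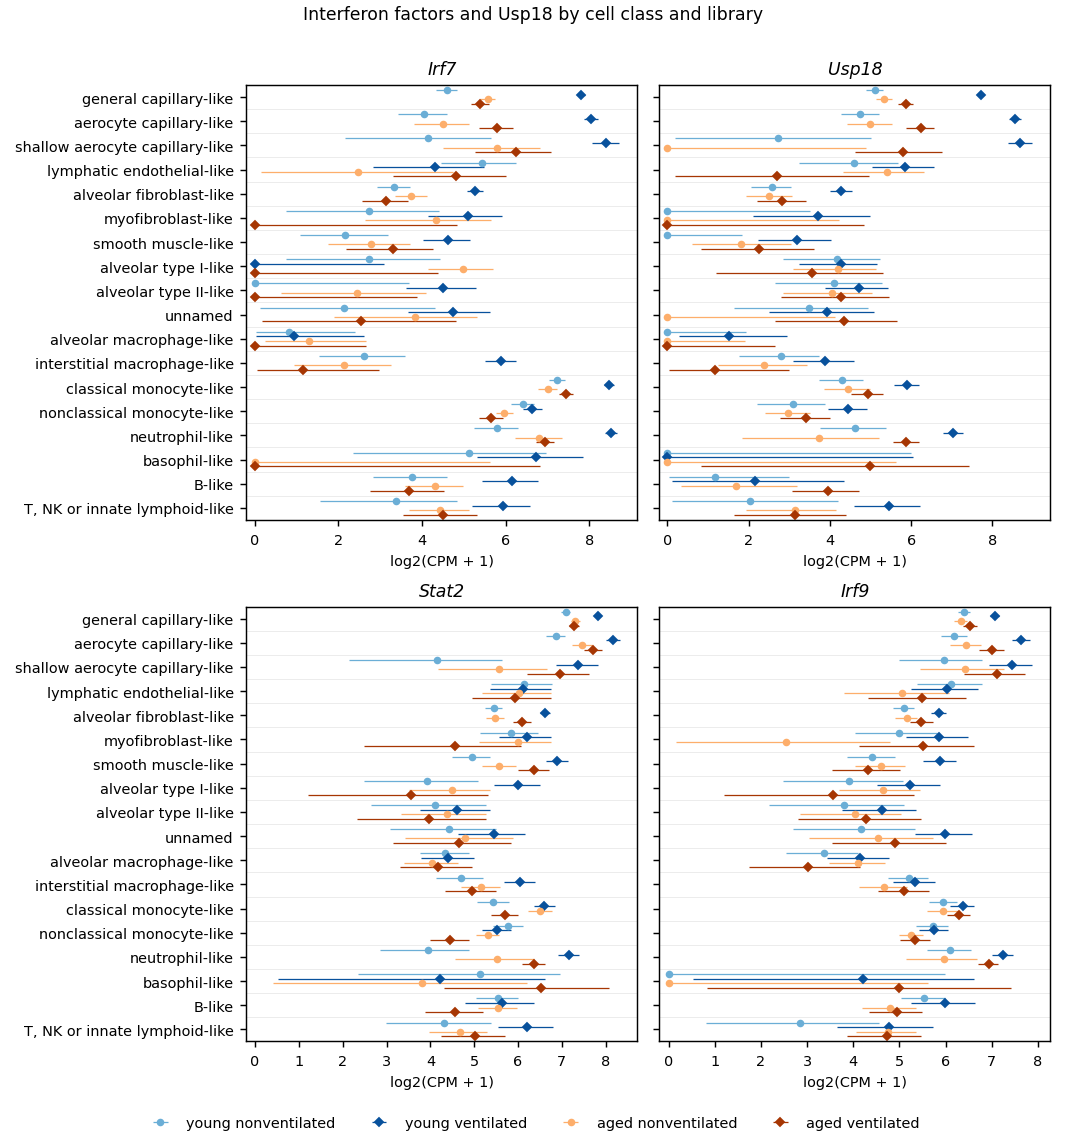
Levels of *Irf7*, *Usp18*, *Stat2* and *Irf9*, as log2(CPM + 1) on the horizontal axis, in each of the 18 cell classes. Each point is 1 library and each bar its exact 95% Poisson interval; the young ventilated points lie to the right of the other libraries in both capillary classes and in neutrophil-like cells, and all libraries are near 0 for *Irf7* and *Usp18* in alveolar macrophage–like cells.

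*Irf1* did not share this pattern, and its differences ran in both directions. It was highest in aerocyte capillary–like cells at 740.4, 794, 832 and 612 CPM (1056, 870, 728 and 553 UMIs), general capillary–like cells at 779, 644, 933 and 430.0 CPM (4134, 3518, 4824 and 1734 UMIs) and the shallow aerocyte-like cluster at 335, 554, 819 and 294 CPM (60, 129, 106 and 43 UMIs), with overlapping ranges. With ventilation, it fell in the aged general capillary–like cells, to a ratio of 0.461 (0.436 to 0.487), while the young ratio was 0.826 (0.790 to 0.865). In the shallow cluster the young ratio was 1.65 (1.21 to 2.29) and the aged ratio 0.358 (0.245 to 0.515), a fall.

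*Irf1* fell furthest in myofibroblast-like cells. These held 471, 117, 753 and 67.3 CPM (168, 39, 156 and 9 UMIs) and fell at both ages, to 0.249 (0.171 to 0.354) in the young and 0.0894 (0.0401 to 0.174) in the aged, the latter to 9 UMIs. Lymphatic endothelial–like cells held 309.8, 139, 645 and 185 CPM (81, 37, 141 and 34 UMIs) and also fell at both ages, to 0.450 (0.296 to 0.671) and 0.287 (0.191 to 0.420). In both classes each ventilated library was below both nonventilated ones. Alveolar fibroblast–like cells held 333, 187, 466 and 139 CPM (1628, 1091, 1884 and 410 UMIs), with a young ratio of 0.562 (0.520 to 0.607) that did not pass the fold and a fall to 0.299 (0.268 to 0.332) in the aged. Alveolar type II–like cells held 126, 74.0, 192 and 44.3 CPM (39, 41, 87 and 12 UMIs) and fell to 0.230 (0.115 to 0.423) in the aged. The cell mix of this class also differed between the aged libraries, and its part in the fall was not tested.

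*Irf1* rose in other classes of the young. The lymphoid class held 84.3, 378, 243 and 217 CPM (27, 114, 188 and 111 UMIs) and rose 4.49-fold (2.93 to 7.10), with the young nonventilated library lower than the other 3. Smooth muscle–like cells held 132, 305, 229 and 147 CPM (190, 339, 275 and 116 UMIs) and rose 2.32-fold (1.93 to 2.78), and B-like cells held 89.5, 184, 95.8 and 108 CPM (71, 53, 86 and 90 UMIs) and rose 2.06-fold (1.42 to 2.98). In both, the young ventilated library was the highest. Alveolar macrophage–like cells held 22.4, 72.9, 23.6 and 47.2 CPM (29, 79, 32 and 33 UMIs) and rose 3.25-fold (2.10 to 5.17), and the unnamed cluster held 84.7, 276, 84.2 and 77.4 CPM (25, 97, 19 and 16 UMIs) and rose 3.25-fold (2.08 to 5.27). That last value did not hold when cells were thinned to 1000 UMIs, which took its log2 ratio from 1.66 to −0.061. Alveolar type I–like cells, with 16.9, 40.8, 60.7 and 43.0 CPM (6, 20, 28 and 8 UMIs), did not pass the fold with ventilation. In the aged mice, *Irf1* rose in none of the 16 classes measured and fell in 6.

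Of the receptor chains, those for interferon gamma moved in some classes. *Ifngr1* fell in classical monocyte–like cells at both ages, where it stood at 565, 122, 557 and 191 CPM (817, 180, 671 and 318 UMIs). The ratio was 0.215 (0.182 to 0.253) in the young and 0.342 (0.298 to 0.392) in the aged, and both ventilated libraries lay below both nonventilated ones. The summed level of 8 neutrophil markers in this class was 128.6, 1160, 168 and 1481 CPM, so it was also higher in both ventilated libraries; its part in the fall was not tested. Interstitial macrophage–like cells held 350.1, 135, 309.9 and 350.3 CPM (410, 137, 368 and 283 UMIs) and fell to 0.384 (0.314 to 0.467) in the young, with the young ventilated library below the other 3. The dendritic-like finer cluster of this class held 33, 39, 59 and 21 cells, and its part was not tested. *Ifngr1* rose in aged alveolar fibroblast–like cells, 2.35-fold (2.17 to 2.54), and the young ratio there was 1.53 (1.43 to 1.64). The unnamed cluster held 159, 276, 213 and 513 CPM (47, 97, 48 and 106 UMIs) and rose 2.41-fold (1.70 to 3.46) in the aged.

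*Ifngr2* fell in young aerocyte capillary–like cells, which held 93.95, 32.9, 90.3 and 47.6 CPM (134, 36, 79 and 43 UMIs), to a ratio of 0.350 (0.235 to 0.509). The shallow aerocyte-like cluster held 128, 47.2, 92.7 and 88.8 CPM (23, 11, 12 and 13 UMIs) and fell to 0.368 (0.162 to 0.786). Both nonventilated libraries were above both ventilated ones in the aerocyte capillary–like class. In the shallow cluster the aged libraries were close, at a log2 ratio of −0.071 from 12 and 13 UMIs. Alveolar type I–like cells held 45.1, 116, 60.7 and 43.0 CPM (16, 57, 28 and 8 UMIs) and rose 2.58-fold (1.46 to 4.81) in the young. For the type I receptor, *Ifnar1* fell in aged aerocyte capillary–like cells, which held 49.1, 31.0, 62.9 and 29.9 CPM (70, 34, 55 and 27 UMIs), to 0.475 (0.288 to 0.767). *Ifnar2* fell in aged alveolar type II–like cells, which held 74.5, 39.7, 79.6 and 14.8 CPM (23, 22, 36 and 4 UMIs), to 0.185 (0.0480 to 0.518), with 4 UMIs in the aged ventilated library. The full-depth type II–like finer cluster held 18 aged nonventilated and 4 aged ventilated cells, and its part in this fall was not tested. In alveolar type I–like cells *Ifnar2* stood at 76.1, 49.0, 34.7 and 69.9 CPM (27, 24, 16 and 13 UMIs) and did not pass the fold with ventilation.

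The ventilation responses were set against each other by subtracting the aged from the young log2 ratio, class by class, with an interval from the 4 counts. Values measured at 1 age or both were used, so a class can have entered only because the young ventilated library was high. Over all genes, 13.7% of such intervals lay above 0 and 14.0% below, with a median of −0.02. For *Irf7* the interval lay above 0 in 9 of 9 classes, with a median difference of 2.76, from 0.55 (0.05 to 1.04) in nonclassical monocyte–like to 4.07 (1.45 to 6.69) in interstitial macrophage–like cells. In general capillary–like cells it was 3.44 (3.05 to 3.83). For *Stat2* the difference was above 0 in 13 of 13 classes and its interval in 8, with a median of 1.44. *Usp18* gave intervals above 0 in 3 of 5 classes with a median of 2.11, and *Irf9* in 4 of 12 with a median of 0.45. *Irf1* gave intervals above 0 in 10 of 17 classes and below 0 in 1, neutrophil-like cells at −0.53 (−0.93 to −0.12), with a median of 0.88. Its largest difference was in the lymphoid class at 2.28 (1.60 to 2.96). Over the values measured at both ages, intervals lay above 0 in 5 of 5 classes for *Irf7*, 7 of 9 for *Stat2*, 3 of 4 for *Usp18*, 4 of 10 for *Irf9* and 9 of 16 for *Irf1*, beside 14.9% of all genes, with medians of 2.59, 1.13, 1.62, 0.39 and 0.86.

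The receptor chains had medians near 0. *Ifnar1* had none of 10 intervals on either side of 0, *Ifnar2* had 1 above and 1 below of 17, and *Ifngr2* had 2 above and 1 below of 13. *Ifngr1* had 1 above and 4 below of 17, with a median of −0.21.

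**Figure D4:**
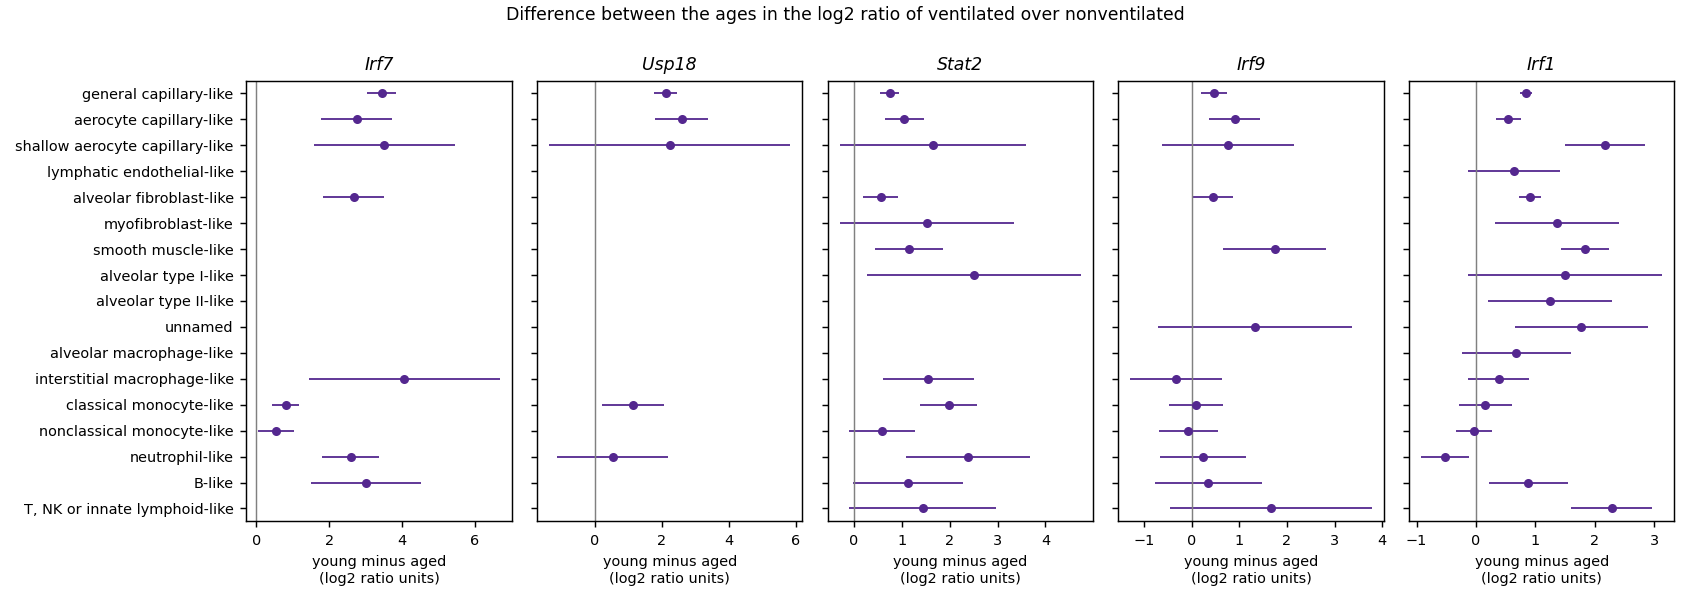
Young minus aged difference of the log2 ratio of ventilated over nonventilated (horizontal axis) for 5 genes in the classes measured in at least 1 ventilation comparison. Points are classes and bars are 95% intervals from counting error; for *Irf7* all 9 intervals lie right of 0, and for *Stat2* all 13 points do.

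The ventilated libraries were also compared directly. In the aged over the young ventilated library, 109 values of the 9 genes were measured, of which 1 was higher (0.917%) and 21 were lower (19.3%), while 3.31% and 4.36% of all measured values were higher and lower. *Irf7* was lower in 8 of 9 classes, with ratios of 0.184 (0.156 to 0.217) in general capillary–like, 0.206 (0.149 to 0.280) in aerocyte capillary–like, 0.224 (0.108 to 0.424) in shallow aerocyte-like and 0.207 (0.129 to 0.319) in alveolar fibroblast–like cells. In leukocytes its ratios were 0.338 (0.281 to 0.404) in neutrophil-like, 0.489 (0.422 to 0.565) in classical monocyte–like and 0.172 (0.0719 to 0.385) in B-like cells. In interstitial macrophage–like cells it had 59 UMIs in the young and 1 in the aged ventilated library.

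*Usp18* was lower in 4 of 5 classes, at 0.274 (0.236 to 0.316) in general capillary–like, 0.198 (0.151 to 0.257) in aerocyte capillary–like, 0.133 (0.0557 to 0.272) in shallow aerocyte-like and 0.447 (0.336 to 0.590) in neutrophil-like cells. *Stat2* was lower in 4 of 12, at 0.458 (0.275 to 0.741) in interstitial macrophage–like, 0.466 (0.310 to 0.693) in nonclassical monocyte–like and 0.429 (0.211 to 0.856) in lymphoid cells and at 0.1700 (0.0197 to 0.668) in alveolar type I–like cells, where the aged count was 2 UMIs. *Irf9* was lower in B-like (0.478) and smooth muscle–like cells (0.330). *Irf1* was lower in smooth muscle–like cells (0.482) and the unnamed cluster (0.281), and *Ifngr2* in alveolar type I–like cells (0.370). The value that was higher in the aged was *Ifngr1* in interstitial macrophage–like cells, 2.60-fold (2.12 to 3.22). The dendritic-like finer cluster of this class held 39 young and 21 aged ventilated cells, and its part was not tested. The comparison of the ventilated libraries shares both of its libraries with the ventilation comparisons above, so it is not independent of them. With cells thinned to 1000 UMIs, 1 value was higher and 12 were lower, and no share of all genes at that depth is given beside them.

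Without ventilation, the ages were closer. Of 97 values measured in the nonventilated libraries, 7 were higher (7.22%) and 1 was lower (1.03%) in the aged, beside 2.70% and 2.32% of all measured values. *Irf1* was higher in 4 classes, 2.88-fold (1.92 to 4.49) in the lymphoid class, 3.59-fold (1.46 to 10.6) in alveolar type I–like, 2.45-fold (1.77 to 3.42) in shallow aerocyte-like and 2.08-fold (1.57 to 2.77) in lymphatic endothelial–like cells. *Irf7* was higher in general capillary–like cells, 2.02-fold (1.62 to 2.53), and in neutrophil-like cells, 2.04-fold (1.17 to 3.54). *Stat2* was higher in classical monocyte–like cells, 2.13-fold (1.54 to 2.96), and *Ifnar2* was lower in alveolar type I–like cells, at 0.456 (0.229 to 0.877). In this comparison, 3 or 4 values in place of 8 passed the fold when the mitochondrial limit was 5%, when CPM was averaged over cells, when cells were thinned to 1000 UMIs or when the highest doublet scores were left out.

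To see how many cells carried these transcripts, each cell was thinned to 2000 UMIs and shallower cells were left out (at most 33 per class and library). In general capillary–like cells, 4.46%, 29.6%, 7.24% and 7.88% had a UMI of *Irf7* and 4.46%, 32.1%, 5.52% and 10.0% a UMI of *Usp18*. The young ventilated share of *Irf7* was 29.6% (26.1% to 33.3%), beside 7.88% (5.48% to 10.9%) in the aged ventilated library, with exact binomial 95% intervals. These intervals treat the cells of a library as independent and do not cover the spread between mice or preparations. Among aerocyte capillary–like cells the shares were 1.34%, 35.2%, 2.33% and 10.6% for *Irf7* and 4.70%, 50.0%, 6.98% and 12.9% for *Usp18*. Neutrophil-like cells gave 9.40%, 43.5%, 15.7% and 17.3% and 3.42%, 20.0%, 3.92% and 8.84%, and classical monocyte–like cells 24.7%, 39.4%, 18.4% and 26.8% and 2.06%, 13.1%, 2.63% and 2.68%. After thinning, the young ventilated library had the largest share in each of these 4 classes for both genes. In classical monocyte–like cells the intervals of the young and aged ventilated shares of *Irf7* overlapped, at 39.4% (31.2% to 48.1%) and 26.8% (18.9% to 36.0%).

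Without thinning, a UMI of *Irf7* was found in 13.9%, 63.5%, 24.0% and 25.1% of general capillary–like cells, at a median of 7030 to 8656 UMIs per cell. In classical monocyte–like cells the young ventilated library was not the highest without thinning. The shares there were 72.45%, 67.81%, 52.17% and 72.57% for *Irf7* and 17.35%, 26.71%, 10.43% and 27.43% for *Usp18*. Their median depths differed, at 15038, 10428, 11268 and 16269 UMIs per cell. Free RNA in the droplets can give a cell a UMI that it did not make. Alveolar macrophage–like cells, at a median of 16203 to 17752 UMIs per cell, held 1, 1, 2 and 0 UMIs of *Irf7* and 0, 2, 0 and 0 UMIs of *Usp18*, and 1.25%, 1.59%, 2.35% and 0% of them had a UMI of *Irf7*. The shares in the capillary classes were above those of this deeper class in the same libraries, and the part of free RNA in them was not tested. In the aged ventilated library, 0 of 42 alveolar macrophage–like cells had a UMI of *Irf7*, which allows a share of up to 7.14% (3 counts), with an exact binomial upper limit of 8.41%.

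Among young ventilated general capillary–like cells, 322 of 685 (47.0%) held UMIs of both *Irf7* and *Usp18*, and 152 (22.2%) held neither. In the other 3 libraries, 4.52% to 10.4% of these cells held both and 60.0% to 73.2% neither. Of 122 young ventilated aerocyte capillary–like cells, 86 (70.5%) held both and 11 (9.02%) neither, against 4.64% to 18.8% and 47.1% to 73.5% in the other libraries. These shares are unthinned. The mice of a pool cannot be told apart, so whether the cells with neither came from certain mice was not tested.

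**Figure D5:**
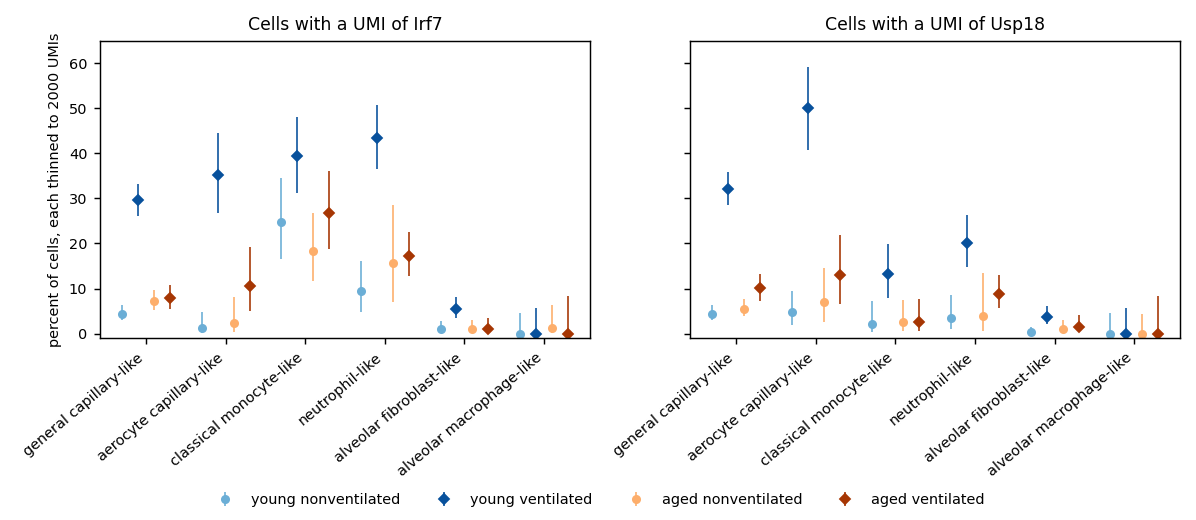
Percent of cells with a UMI of *Irf7* (left) and *Usp18* (right) after each cell was thinned to 2000 UMIs, in 6 cell classes. Points are libraries and bars exact binomial 95% intervals; the young ventilated library is the highest in 5 classes for both genes, and alveolar macrophage–like cells stay between 0% and 1.18%.

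Markers of other cell types were summed in the same classes. In general capillary–like cells, the 7 classical monocyte markers summed to 31.1, 78.9, 24.8 and 42.9 CPM and the 8 neutrophil markers to 33.4, 47.0, 21.9 and 175 CPM. The monocyte markers were highest in the young ventilated library, as *Irf7* and *Usp18* were, and the neutrophil markers in the aged ventilated one. Of the monocyte markers 6 or 7 of 7 were above 0 in each library, with *Ms4a4c* at 0 in both nonventilated ones, and of the neutrophil markers 6 to 8 of 8, with *Ly6g* at 0 in both young ones. In aerocyte capillary–like cells, the monocyte markers summed to 9.12, 32.9, 11.4 and 22.1 CPM and the neutrophil markers to 209.6, 77.6, 30.9 and 323 CPM. Classical monocyte–like cells, in which *Irf7*, *Usp18* and *Stat2* rose in the young, held neutrophil markers at 128.6, 1160, 168 and 1481 CPM, with *Ly6g* at 0 in each library. In alveolar fibroblast–like cells, the monocyte markers summed to 1059, 1837, 1041 and 1572 CPM, higher in both ventilated libraries and highest in the young one, as *Stat2* was, with *Ccr2* at 0 in both nonventilated and *Ly6c2* in both aged libraries. The monocyte list also holds *Fn1*, *Vcan* and *Mgst1*, and which genes made up the sum in these fibroblast-like cells was not separated. The neutrophil markers there summed to 663, 105, 570.5 and 188 CPM, lower in both ventilated libraries, with *Ly6g* at 0 in all 4. In neutrophil-like cells, the monocyte markers summed to 239, 485, 283 and 392 CPM, again highest in the young ventilated library. The part of these markers in the results was not tested. The 6 markers of plasmacytoid dendritic cells, which hold much *Irf7*, summed to 1 to 7 UMIs in each library over all general capillary–like cells and to 1 UMI in each over aerocyte capillary–like cells.

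The ligands themselves were hardly captured. Over all barcodes, 8 type I interferon genes summed to 5, 3, 5 and 3 UMIs, and the type III genes *Ifnl2* and *Ifnl3* were at 0 in all 4 libraries. Of *Ifnb1*, the library totals were 0, 1, 2 and 0 UMIs. At this depth a difference in these ligands was not detectable. *Ifng*, which encodes interferon gamma, had 9, 15, 32 and 34 UMIs. In retained cells nearly all lay in the lymphoid class, with 8 of 9, 14 of 15, 20 of 22 and 29 of 29 UMIs. That class held 40, 45, 77 and 61 cells, so the totals do not compare levels. Scaled to the UMIs of the class, *Ifng* rose with ventilation in the aged (log2 ratio 1.115). The young log2 ratio was 0.824, with too few UMIs to be measured.

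For the rest of the pathway, 56 further genes were counted in the same way: ligands, other receptor chains, the kinases, other IRF factors, other inhibitors and type I interferon targets. In the young, 440 values were measured, of which 206 rose (46.8%) and 4 fell (0.909%), beside 9.24% and 11.1% of all genes. The rises lay mostly in the targets, with 183 of 264 values up and a median log2 ratio of 1.71, beside 8 of 39 for the kinases, 3 of 48 for the other IRF factors, 12 of 75 for the other inhibitors and 0 of 14 for the other receptor chains. In the aged, 52 of 367 values rose (14.2%) and 17 fell (4.63%), beside 5.47% and 7.82% of all genes. Of the targets 38 of 195 rose and 12 fell, with a median of 0.27. Rises were also found in 9 of 75 values of the other inhibitors and 3 of 45 of the other IRF factors. The other receptor chains gave 1 of 15, the kinases 0 of 36 and the ligands 1 of 1. In the aged over the young ventilated library, 163 of 444 values were lower (36.7%) and 6 higher (1.35%), beside 4.36% and 3.31% of all genes. In the nonventilated libraries, 24 of 338 values were higher (7.10%) and 3 lower (0.888%) in the aged, beside 2.70% and 2.32% of all genes. The list was drawn up with results of these data in view, so its counts are not independent evidence of a direction.

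The largest rises in the young were of *Ifit3* and of *Rsad2*, which encodes the antiviral protein viperin, in aerocyte capillary–like cells. *Ifit3* had 6 UMIs (4.21 CPM) in the young nonventilated and 1211 UMIs (1105 CPM) in the young ventilated library (log2 ratio 7.82). *Rsad2* had 12 UMIs (8.41 CPM) in the young nonventilated and 1263 UMIs (1153 CPM) in the young ventilated library (6.98). In the shallow aerocyte-like cluster *Rsad2* had 1 UMIs (5.58 CPM) in the young nonventilated and 306 UMIs (1313 CPM) in the young ventilated library, a ratio of 235 (41.9 to 9327). The largest falls were smaller, at a log2 ratio of −1.64 for *Ifi27l2a* in lymphatic endothelial–like cells, −1.61 for *Pias1*, an inhibitor of STAT proteins, in the unnamed cluster, and −1.10 for *Tyk2* in classical monocyte–like cells.

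In the aged, *Oasl1* in nonclassical monocyte–like cells had 0 UMIs (0 CPM) in the aged nonventilated and 94 UMIs (47.7 CPM) in the aged ventilated library, at least 48.8-fold higher if the count of 0 is set to 3 UMIs. *Rsad2* rose in the shallow aerocyte-like cluster, by a log2 ratio of 3.52 from 3 UMIs. *Ifit1*, which encodes a binder of viral RNA, rose in neutrophil-like cells. It had 6 UMIs (24.6 CPM) in the aged nonventilated and 421 UMIs (298 CPM) in the aged ventilated library (3.38). *Rsad2* went the other way in lymphatic endothelial–like cells, with 24 UMIs (109.8 CPM) in the aged nonventilated and 1 UMIs (5.45 CPM) in the aged ventilated library. *Bst2*, which encodes tetherin, fell in alveolar type I–like cells (−2.46) and *Ifi27l2a* in smooth muscle–like cells (−2.30).

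Between the ventilated libraries, the largest deficits in the aged were of *Rsad2* in general capillary–like cells, with 4407 UMIs (806 CPM) in the young ventilated and 136 UMIs (33.7 CPM) in the aged ventilated library (log2 ratio −4.57), of *Ifi44* in the shallow aerocyte-like cluster (−4.47) and of *Rsad2* in aerocyte capillary–like cells (−4.47). *Sp100* in alveolar macrophage–like cells (1.69) and *Ptpn11* and *Irf8* in the shallow aerocyte-like cluster (1.54 and 1.35) were the largest excesses. Without ventilation, *Ifi27l2a* was higher in the aged in the lymphoid class (3.55) and in smooth muscle–like cells (3.00) and lower in lymphatic endothelial–like cells (−2.45). *Trim30a* was higher in smooth muscle–like cells (2.10), and in the lymphoid class *Irf8* (−3.77) and *Tyk2* (−1.13) were lower.

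Genes with a like pattern were sought over the 68 sums of class and library, among the 7424 genes that reached 20 CPM on average. The sums share libraries and differ in depth, so Spearman's rho is given as a description. *Irf7* was most like *Rnf213* (0.81), *Parp9* (0.80) and *Rtp4* (0.79), *Irf9* most like *Rnf213* (0.87), *Rtp4* (0.85) and *Parp14* (0.81), and *Stat2* most like *Herc6* (0.80), *Parp14* (0.80) and *Rnf213* (0.79). *Usp18* was nearest to *Ifit1* (0.75), *Ifih1* (0.74) and *Rtp4* (0.73). *Irf1* had other neighbors, *Irgm1* (0.78), *Hecw2* (0.76) and *Irgm2* (0.75). The receptor genes were nearest to other genes: *Ifnar1* to *Pstpip1* and *Jak2* (both 0.78), *Ifnar2* to *Fam114a1*, *Ifitm2* and *Zyx* (0.73 to 0.77), *Ifngr1* to *Pim1*, *Emp3* and *St3gal4* (0.67 to 0.74), and *Ifngr2* to *Tyrobp*, *Hcls1* and *Ostf1* (0.79 to 0.81).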

How the data were processed

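Lung cells of 4 libraries, 1 per group and each pooled from 3 mice, were profiled by droplet scRNA-Seq. The authors deposited raw UMI counts per gene and barcode, made with Cell Ranger 7.0.0 against mm10, per the labels, and with default parameters per the study's methods. In that version the default counts intronic reads too. No annotation of cells was used here.

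Barcodes were retained between 200 and 5000 genes, with mitochondrial transcripts at no more than 10% of UMIs and a total up to the 93rd percentile (21021 UMIs). They were log-normalized and clustered in Seurat 5.3.0 under R 4.3.3, with SeuratObject 5.2.0 and Matrix 1.6.5, from 2000 variable genes without the interferon genes, 37 principal components and a resolution of 0.18. Clusters were named from marker lists. The members, markers and gene lists were chosen with earlier results of these data known.

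Counts were summed per class and library and compared with exact Poisson, conditional binomial and Clopper-Pearson 95% intervals in Python 3.11.15 (numpy 2.4.6, scipy 1.17.1, pandas 2.3.3). A class entered a comparison with at least 10 cells and 100000 UMIs in both libraries. Levels, fold criteria and the floor of 3 UMIs are given with the results. For a difference of log2 ratios, the interval was 1.96 standard errors from the counts. The ratio calculation was tested on simulated data, and doublets were scored with Scrublet in scanpy 1.11.5. Figures were drawn with matplotlib 3.10.9. Each of the 9 genes was named with its values in the 3 classes where it was highest and in each class with a value past the fold. Of the pathway list, the 3 largest rises and falls per comparison were named, and likeness was ranked by Spearman's rho of log2(CPM + 1), with 1 gene of that ranking not reported here. Of 32285 gene IDs, 32235 (99.8%) matched the annotation used for positions. Alternatives changed the UMI limit, the mitochondrial limit, the resolution, the variable genes, the scaling, the weighting of cells, the depth, the CPM filter and the doublet filter, and 1, without the 3 shallow clusters, was added after seeing the data.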

Additional observations from a re-analysis of the deposited data

Results flagged for a closer look

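In 3 cases the ventilation ratio was past the fold at 1 age or the other and its interval lay on opposite sides of no change at the 2 ages. *Stat2* in classical monocyte–like cells had a log2 ratio of 1.17 in the young and −0.81 in the aged, with the aged nonventilated library (89.7 CPM) near the young ventilated one (95.9 CPM). *Irf1* in the shallow aerocyte-like cluster had 0.71 in the young and −1.46 in the aged. *Irf1* in smooth muscle–like cells had 1.21 in the young and −0.63 in the aged. With 1 pooled library per group, these differences between the ages were not tested.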

How the results depend on the processing

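No paired analysis was possible because each group is 1 pooled library and no test was run. For the same reason no replicate could be left out. Of the 83 single values of the 9 genes past the fold, 75 were still past it in the same direction with no upper limit on UMIs, 62 with a mitochondrial limit of 5% (6 had no value), 61 at a resolution of 0.5 (15 had none), 75 with the interferon genes kept among the variable genes (7 had none), 78 under median ratio scaling, 69 with the mean of per-cell CPM, 83 without the CPM filter, 73 without the highest Scrublet scores (2 had none) and 68 without the 3 shallow clusters (15 had none). The result without the CPM filter was fixed in advance, since a value that passes with the filter also passes without it. Leaving out the shallow clusters does not change the sums of the other classes, so it could not alter their values either.

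Thinning each cell to 1000 UMIs, with a class minimum of 10000 UMIs, left 31. It took the count for the 9 genes from 39 to 19 for ventilation in the young, from 14 to 7 for ventilation in the aged, from 8 to 3 for age without ventilation and from 22 to 13 for age with ventilation. The counts for the pathway list went from 210 to 128, from 69 to 32, from 27 to 10 and from 169 to 96. Thinning leaves fewer UMIs for each value, but whether this alone accounts for the lower counts was not tested. No share of all genes at that depth is given beside these counts. It also turned 1 value, *Irf1* in the unnamed cluster of the young, from a log2 ratio of 1.66 to −0.061; the cause was not tested. For age without ventilation, the count of 8 for the 9 genes was 3 with the mitochondrial limit of 5%, 4 with the mean of per-cell CPM and 4 without the highest Scrublet scores, and the pathway count of 27 was 43 at a resolution of 0.5; the causes were not tested. At that resolution most general capillary–like, alveolar fibroblast–like and classical monocyte–like cells fell into clusters that held mostly ventilated or mostly nonventilated cells.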

Other observations

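*Ifnk*, which encodes interferon kappa, gave most of the captured type I interferon UMIs, with 5, 2, 3 and 3 UMIs over all barcodes in the order used above, while *Ifna1*, *Ifna2*, *Ifna4*, *Ifna5*, *Ifna13* and *Ifne* were at 0 in all 4 libraries.

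In neutrophil-like cells, 1.64%, 25.4%, 1.69% and 8.37% of cells held UMIs of both *Irf7* and *Usp18*, and 77.0%, 29.5%, 74.6% and 61.6% held neither, at medians of 4557, 4868, 4000 and 5169 UMIs per cell.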
